A study of Mus musculus with 2 samples.

Results

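The 9 genes described here, C330018D20Rik, Dnajc1, Gla, Gnl3l, Jmjd4, Fbxl17, Rnf168, Ankrd28 and Cds2, each had at least 7 edited positions listed in the 3′ untranslated region (UTR) of their transcript in wild-type-labelled mouse embryonic fibroblasts. They held 93 of the 654 sites of that library and 8 of the 110 sites of the library labelled as lacking Adar2, out of 139 genes with any listed 3′ UTR site in the wild-type-labelled library. The number of listed wild-type sites chose the genes and is therefore a description. Ankrd28 and Cds2 stood just inside that threshold with 7 sites each, and Iws1 and Ovca2 just outside it with 6 each. The other 7 genes that also reached 7 sites were Car5b (31), Rpa1 (17), Slc7a2 (10) and, with 7 each, Ebna1bp2, Exoc8, Mdc1 and Slc35e1; by number of listed sites these are the genes most like the 9.

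Poly(A)+ RNA was sequenced from 1 sample of cultured embryonic fibroblasts with the genotype Adar2-/- and 1 with the genotype Adar2+/+, single end, after library construction with a TruSeq or Nextera kit (which one was used for which is not stated). Neither the part of Adar2 that was deleted nor the number of embryos behind each sample is given in the sources used here. Behind the expression values stood 9546997 reads for the KO-labelled library and 9446911 for the WT-labelled library. Median depth over listed sites was 14 reads (2 to 79) in the KO list and 15 reads (2 to 107) in the WT list. The transcript of Adar2 itself, listed as Adarb1, had 25.8 RPKM (reads scaled to gene length and library size) in the library labelled KO and 18.4 RPKM in the library labelled WT, so it was not lower where a loss is labelled. Adar, the gene of the second catalytically active family member, had 18.7 RPKM in the KO-labelled library and 28.0 RPKM in the WT-labelled library. Such a gene-wide value says nothing about a deleted exon, and the libraries are called KO-labelled and WT-labelled throughout. The fibroblast markers (Col1a1, Col1a2, Col3a1, Vim, Pdgfrb and Thy1; 6 of 6 present) lay between 35.4 and 81.0 RPKM in the KO-labelled library and between 9.40 and 82.7 RPKM in the WT-labelled library. The epithelial and blood cell markers Epcam, Cdh1 and Ptprc lay between 0 and 0.0712 RPKM in the KO-labelled library and between 0.0747 and 1.80 RPKM in the WT-labelled library. The fibroblast marker at 9.40 RPKM in the WT-labelled library had at least 35.4 RPKM in the KO-labelled library. The libraries thus differed in marker levels, and the ranges do not show that the cultures were alike. Each genotype has 1 library, so the variation among cultures is unknown and every interval reflects counting alone.

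ADAR enzymes bind double-stranded RNA and turn its adenosines into inosines, which sequencing reads as G. In mouse 3′ UTRs such double strands commonly form where a pair of related repeats, often short interspersed elements, lie in opposite orientation in the same transcript and fold back on each other. A long stem of this kind can be edited at many adenosines at once, in contrast to the single recoding sites of some coding sequences.

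The sites of 8 of the 9 genes could be placed on transcript sequence, and nearly all lay in stretches that match another stretch of the same 3′ UTR in inverted orientation. Such an inverted pair is called a stem below and its sides arms. These are matches of sequence, and folding was not computed. The distances between a gene's sites were laid over its GENCODE M21 transcripts (build GRCm38), and every site had to fall on an A in the 3′ UTR. The spacing fitted at a single place in the 3′ UTR for all genes except Fbxl17, for which it fitted nowhere. The windows below show where the sites are densest within an arm of the inverted pair described further on, since a reader can see there how closely edited bases follow each other. All are the strand of the transcript, 5′ to 3′, at most 30 bases long, with coordinates on GRCm38 as found by this match and not converted from the deposited positions; capitals mark the adenosines listed as edited in the WT-labelled library.
Dnajc1, arm nearer the 5′ end, chr2:18215352-18215381, minus strand: gagaAtcAggtcacctttAgatAcAgagtg
Dnajc1, arm nearer the 3′ end, chr2:18214715-18214744, minus strand: aaaggccaAgtAtttaAatgctAgagactt
Gla, arm nearer the 3′ end, chrX:134588630-134588659, minus strand: ggtAgcAcacgcctttAAtcctagcacttA
Gnl3l, arm nearer the 5′ end, chrX:150985510-150985539, minus strand: ctgggcatacAcctttAAtcctagcactct
Jmjd4, arm nearer the 5′ end, chr11:59456254-59456283, plus strand: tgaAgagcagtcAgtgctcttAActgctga
Jmjd4, arm nearer the 3′ end, chr11:59458299-59458328, plus strand: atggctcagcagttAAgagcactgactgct
Rnf168, arm nearer the 3′ end, chr16:32300239-32300268, plus strand: AcactgtAgctgacttcAgacagaccagaA
Ankrd28, arm nearer the 3′ end, chr14:31700649-31700678, minus strand: agatgttttctttAtAAaaatcaacatcaa
Cds2, arm nearer the 5′ end, chr2:132309630-132309659, plus strand: cttAAtatgtgccagacacagtgccAAggg
Cds2, arm nearer the 3′ end, chr2:132309862-132309891, plus strand: taacgcatgtaAgcatttAgcaaggtgcct

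The windows of Gla and Gnl3l, genes that lie far apart on the X chromosome, share the 17 bases cctttAAtcctagcact. The same pair of adjacent adenosines was edited in both. Their levels in the WT-labelled library were 50% and 57.1% in Gla and 67.6% and 41.2% in Gnl3l. In Jmjd4 the stretch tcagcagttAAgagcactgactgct of one window is, base for base, the reverse complement of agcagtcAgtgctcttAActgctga in the other (25 bases). Edited adenosines stood on both strands of this perfect stretch, including a pair of adjacent ones on each side.

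Inverted pairs were searched for with blastn in each 3′ UTR, comparing it with its own reverse complement and without using the sites. Of the 84 placed sites, 83 (98.8%) fell in an arm of such a pair, while the arms held 9.91% of the 6607 other adenosines of the same 3′ UTRs. The only site outside an arm was in Gla, at 14.3% of 14 reads. The best-covered pair of each gene alone held 81 sites, 39 in the arm nearer the 5′ end and 42 in the other, so editing was listed on both sides of every stem. Arms covered between 3.99% and 20.5% of a 3′ UTR.

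The stems differed in length, match and loop, taking for each gene the pair that held most sites. Among these 8 pairs Rnf168 had the closest match, 132 aligned bases at 87.9% identity with no gap and a loop of 250 bases. Dnajc1 (158 bases, 84.8%), Gla (145 bases, 84.8%) and Jmjd4 (157 bases, 83.4%) followed, and the arms of Jmjd4 stood 1990 bases apart against 531 in Dnajc1 and 607 in Gla. Gnl3l had 123 bases at 80.5% with 780 bases between the arms. C330018D20Rik had the longest alignment and the lowest identity of the 8, 175 bases at 74.9% with 18 gap positions, and it also had the most listed sites. Ankrd28 (86 bases at 80.2%) and Cds2 (71 bases at 77.5%, 142 bases apart) had the shortest stems and the fewest sites. Neither C330018D20Rik nor Ankrd28 had a site flagged as lying in a repeat in the deposited lists, although both had a pair of arms; all sites of the other 7 genes carried that flag.

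**Figure D1:**
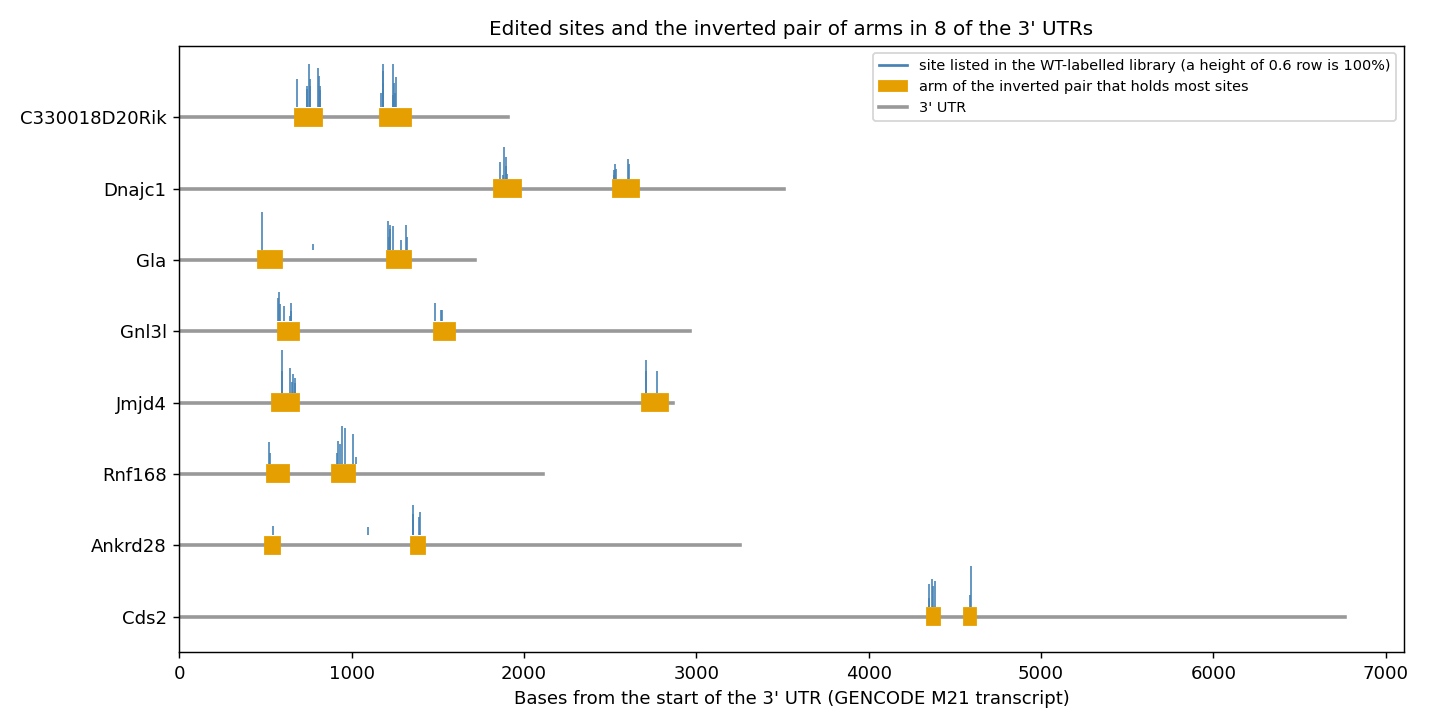
Edited sites and inverted arms in the 3′ UTRs of the 8 genes whose sites could be placed. The x axis gives bases from the start of the 3′ UTR, grey lines the 3′ UTR, orange boxes the arms of the pair that holds most sites, and blue ticks the sites listed in the WT-labelled library, with height in proportion to editing level; 81 of 84 ticks stand over an orange box.

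How far the placement can be trusted differed between genes. The spacing of the 19 sites of C330018D20Rik fitted in none of 21876 other genes, taking the longest protein-coding transcript of each. For Dnajc1, Jmjd4, Gnl3l and Gla it fitted in 0.178%, 0.946%, 1.22% and 1.46% of them, and for Rnf168 in 4.68%. With 7 sites only, the spacing of Ankrd28 fitted in 29.1% and that of Cds2 in 30.9%, so the spacing alone does not fix these 2 placements, and the spacing of Ankrd28 fitted a second time outside its 3′ UTR. Without both genes 69 of 70 sites lay in arms. Inverted pairs are not common in 3′ UTRs as a whole. By the same search 5.95% of 11611 genes that reached 1 RPKM had a pair, as did 11.9% of the 4063 genes whose 3′ UTR was between 1718 and 6765 bases long, as in the 9 genes. Of the 9 genes 8 (88.9%) had a pair, and the search found none in the 3′ UTR of Fbxl17. As the sites of Fbxl17 could not be placed, it is not known whether the 3′ UTR searched holds them. Among the other genes with a listed 3′ UTR site the share was 64.7% of 116, so a pair is not particular to the 9 genes.

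The bases around the placed sites were not those of adenosines at large. A G preceded 1 of 84 sites (1.19%), against 22.4% of the 6607 other adenosines of the same 3′ UTRs. A T preceded 38.1% of sites against 21.2% of other adenosines, and a G followed 42.9% of sites against 29.1%. Only 9.91% of those other adenosines lay in arms. Neighbouring bases were not compared within arms alone, so the base composition of the arms is not separated from that of the sites. Within the stems, the base opposite the adenosine was T at 60 of 81 sites (74.1%) and C at 16 (19.8%), while C stood opposite 5.92% of the 473 other adenosines of the same arms. Sites opposite a C had a median level of 57.0% (12 sites with at least 10 reads), and sites opposite a T 41.2% (39 sites), with ranges of 8.33% to 94.4% and 8.70% to 88.9%. These shares are descriptions: neighbouring sites share reads and stems, and no test was made.

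The 9 genes had 13 pairs of edited bases directly next to each other, and in 10 of them the base nearer the 5′ end had the higher level. The pairs of Fbxl17 (4 reads at each base) share their middle base and are not separate. Both bases of a pair are covered by largely the same reads, which intervals computed per base do not take into account. Ankrd28 had 71.7% at the first base and 34.8% at the second (46 reads each), the only pair whose Wilson intervals did not overlap. Gnl3l had 67.6% and 41.2% (34 reads each). In Cds2 the levels were 52.6% and 21.1% (19 reads each) in one pair and 64.7% and 47.1% (17 reads each) in the other. Of the 6 pairs with at least 10 reads at both bases, Gla alone went the other way, at 50% and 57.1% of 14 reads. Over all 13 pairs the median level was 66.7% at the first base and 50% at the second. In the other 3′ UTR genes the first base was higher in 14 of 28 such pairs, the second in 8, and 6 were equal.

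**Figure D2:**
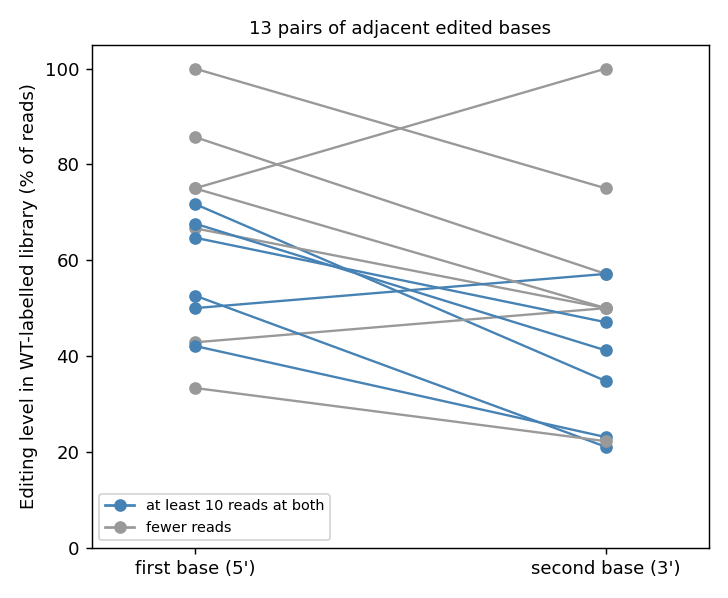
Editing level in the WT-labelled library (y axis, percent of reads) at the first and second base of 13 pairs of adjacent edited adenosines, in transcript direction. Blue lines are the 6 pairs with at least 10 reads at both bases, grey lines pairs with fewer reads; 10 of the 13 lines go down.

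Sites came in clusters within each gene. The median distance between neighbouring sites of a gene was 7.5 bases, and 49 of 84 distances (58.3%) were 10 bases or less. In the other 3′ UTR genes with at least 2 sites the median distance was 13 bases, and 45.8% of 192 distances did not exceed 10 bases. Rpa1 and Car5b, which also have many sites, had a median of 8 bases and 56.5% of 46 distances within 10 bases, close to the 9 genes. Genes chosen for many sites also have shorter distances by that choice, so the spacing has no test. Among sites with at least 10 reads, the level in the WT-labelled library had a median of 42.9% in the 9 genes (58 sites; quartiles 26.1% and 56.0%) and of 28.6% in the other 3′ UTR genes (271 sites; 16.5% and 50%). In Rpa1 and Car5b, which are among those others, the median was 29.7% (35 sites). Median depth over all listed 3′ UTR sites was 15 reads in the 9 genes and 21 reads in the others. The 9 genes were chosen for many sites with at least 2 edited reads, which can favour high levels, so the contrast in level has no test. Sites in annotated repeats made up 72.0% in the 9 genes and 82.0% in the others.

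**Figure D3:**
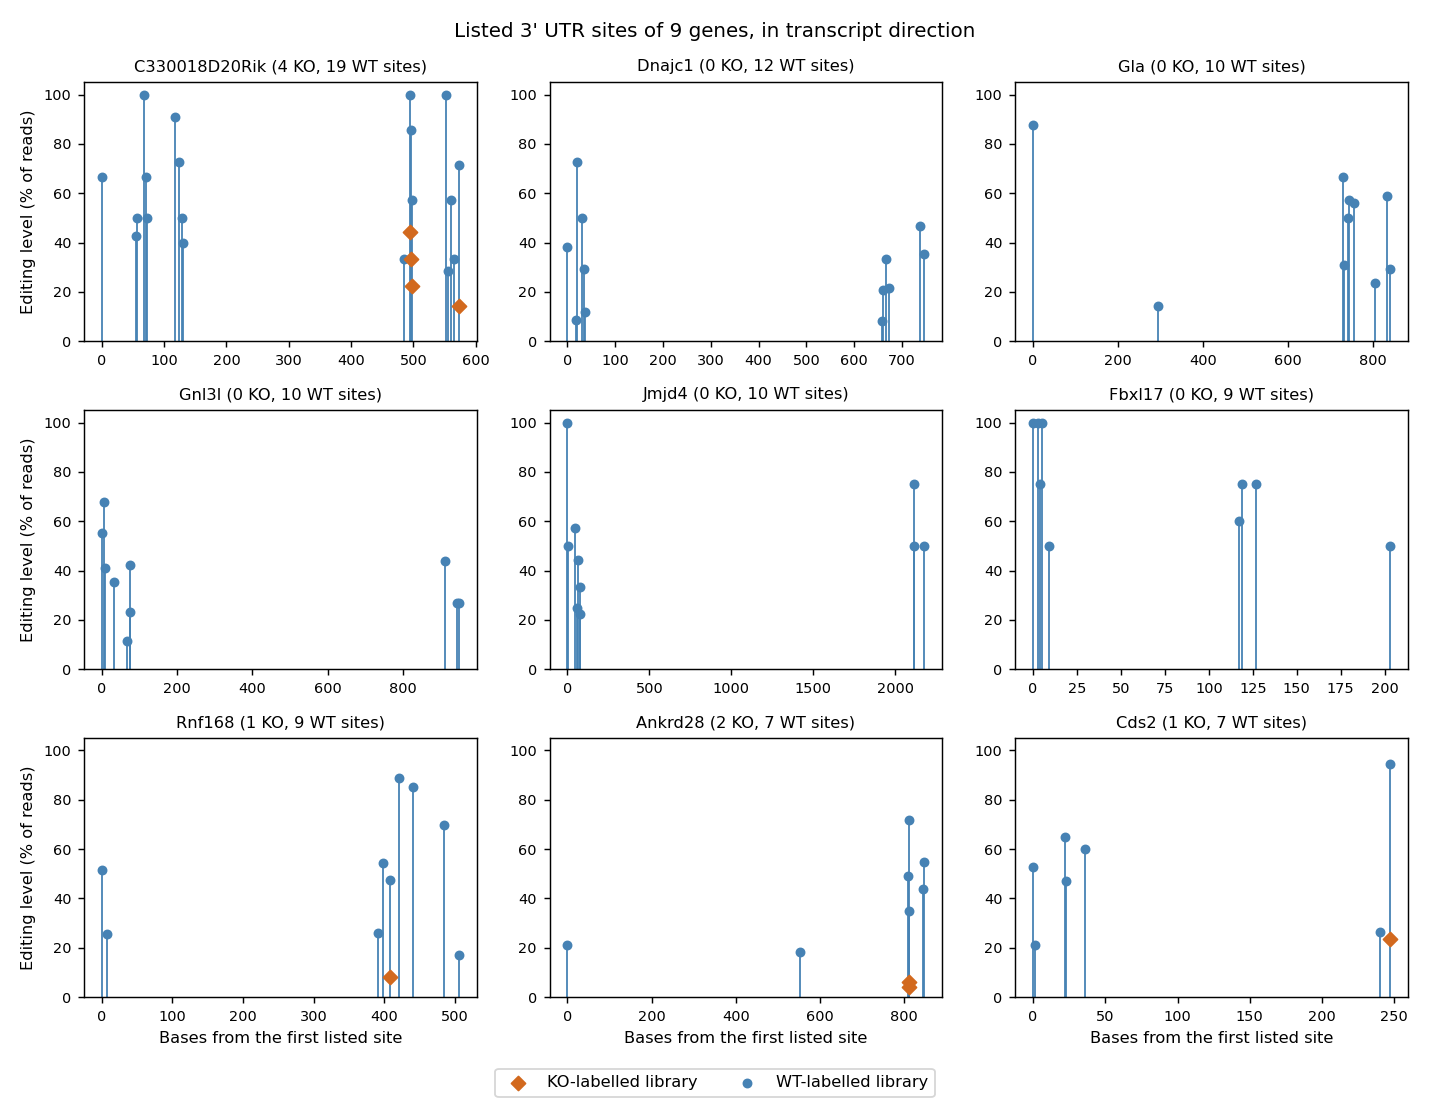
Editing level (y axis, percent of reads) of every listed 3′ UTR site of the 9 genes against the distance in bases from the gene's first site, in transcript direction (x axis, a different scale in each panel). Orange diamonds are the 8 sites listed in the KO-labelled library and blue points on stems the 93 sites listed in the WT-labelled library; each orange diamond lies below the blue point at its position.

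In the KO-labelled library 5 of the 9 genes had no listed site, and Rnf168, Cds2, Ankrd28 and C330018D20Rik together had 8. Outside the 9 genes, the WT list named 130 genes with a 3′ UTR site and the KO list only 33. Having no KO-listed site was therefore common, but 71 of the 139 genes with a WT-listed 3′ UTR site had only 1. Of the 7 other genes with at least 7 sites, Ebna1bp2 and Slc35e1 had no KO-listed 3′ UTR site. Car5b, Rpa1, Slc7a2, Exoc8 and Mdc1 had 1 to 5 each. Whether the 5 genes without a KO-listed site stand apart was not tested. Depth at unlisted sites is not given, so an unlisted site is not shown to be unedited. All 8 KO-listed sites of the 9 genes were also in the WT-labelled list, where they made up 8.60% of the 93 sites. For the other 3′ UTR genes 11.8% of 322 sites were in both lists. At every one of the 8 the level was lower in the KO-labelled library, with a median of 18.3% against 71.6% in the WT-labelled library. Where both libraries had 10 reads or more, sites were compared by Fisher's exact test, adjusted (Benjamini-Hochberg) over the 55 such sites of the whole series. All 4 testable sites of the 9 genes passed, lower in the KO-labelled library. They lay in 3 genes, and those of Ankrd28 are adjacent bases, so they are not independent. The same held for 60.0% of all 55 sites, so a pass is the common outcome. The test compares the 2 libraries, not the genotypes, and the genes were chosen on their WT-labelled sites.

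**Figure D4:**
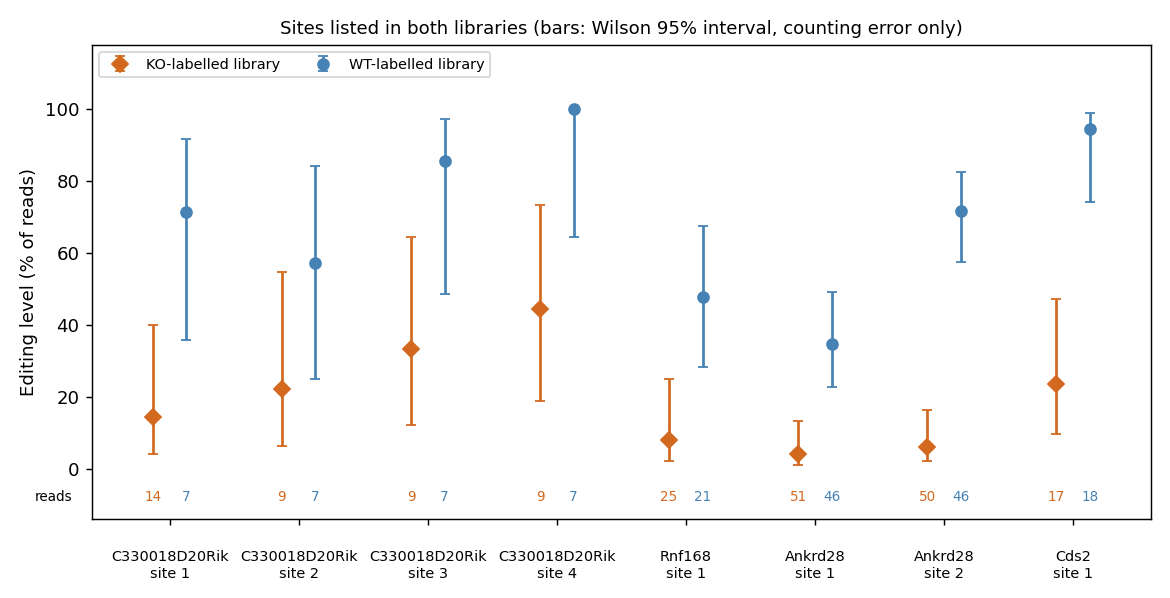
Editing level (y axis, percent of reads) at the 8 sites of the 9 genes that both lists hold, in order of position within a gene, with Wilson 95% intervals and the number of reads under each point. The KO-labelled library (orange) lies between 3.92% and 44.4%, the WT-labelled library (blue) between 34.8% and 100%, and the intervals overlap at all 4 sites of C330018D20Rik and at none of the other 4.

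Rnf168 encodes a ubiquitin ligase that marks chromatin around DNA double-strand breaks. Position 32300342 on chromosome 16 (mm9, as are all site positions here) carried the edit at 8.0% (2 of 25 reads) in the KO-labelled library and 47.6% (10 of 21 reads) in the WT-labelled library (Fisher's exact test, adjusted p = 0.0104). It was the single Rnf168 site in the KO list. The WT list held 9 sites from 32299933 to 32300439 at depths of 18 to 41 reads. Their levels ran from 17.1% at 32300439, the last site, to 88.9% at 32300354, with 51.4% of 37 reads at the first site. The site at 32300354, with 88.9% of 18 reads, lies 12 bases from the KO-listed position, which had 25 reads in that library, and is itself not in the KO list.

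Gnl3l encodes a nucleolar GTPase. No Gnl3l site was in the KO list. The WT list held 10 sites on chromosome X between 147419124 and 147420072, in clusters of 7 and 3, at depths of 15 to 39 reads. The highest level was 67.6% of 34 reads at 147420066 and the lowest 11.4% of 35 reads at 147420005, so the most and the least edited bases lay in the same arm. The median was 41.2% in the arm nearer the 5′ end and 26.7% in the other.

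Dnajc1 encodes a J-domain protein of the endoplasmic reticulum membrane that works with the chaperone BiP. It had 0 sites in the KO list and 12 in the WT list, on chromosome 2 from 18136274 to 18137021, with 15 to 24 reads at each. Its median level, 31.4%, was the lowest of the 9 genes, with a minimum of 8.33% of 24 reads at 18136363 and a maximum of 72.7% of 22 reads at 18137001. The 12 sites split evenly between the arms, with medians of 33.8% in the arm nearer the 5′ end and 27.5% in the other.

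Fbxl17 encodes an F-box protein, the substrate-binding part of an SCF ubiquitin ligase. It had no site in the KO list and 9 in the WT list on chromosome 17 between 63401891 and 63402094, within 204 bases. Depth was only 4 or 5 reads, and its levels of 50% to 100% carry wide intervals. The site at 63402094 was edited in 4 of 4 reads (51.0% to 100%, Wilson).

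Jmjd4 encodes a hydroxylase of the translation termination factor eRF1. It also had no site in the KO list, and 10 in the WT list on chromosome 11 from 59269703 to 59271880, the widest spread of the 9 genes. A step of 2037 bases with no listed site separated its clusters. Depth was 4 to 9 reads and levels ran from 22.2% to 100%, and the intervals of its lowest site (6.32% to 54.7%) and its highest (51.0% to 100%) overlap.

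Ankrd28 encodes an ankyrin repeat subunit of protein phosphatase 6 and had the deepest coverage of the 9 genes, with 33 to 55 reads in the WT-labelled library. On chromosome 14, position 32513849 showed a level of 6.0% (3 of 50 reads) in the KO-labelled library and 71.7% (33 of 46 reads) in the WT-labelled library (Fisher's exact test, adjusted p = 9.22e-11). The base beside it, 32513848, had 3.92% (2 of 51 reads) in the KO-labelled library and 34.8% (16 of 46 reads) in the WT-labelled library (Fisher's exact test, adjusted p = 0.000338). The intervals of the libraries did not overlap at either base. Position 32513851, 2 bases away, had a WT-labelled level of 48.9% (47 reads) and is not in the KO list. At the ends of the cluster the WT-labelled level was 54.7% of 53 reads (32513812) and 21.2% of 33 reads (32514661), and the lowest was 18.2% of 55 reads at 32514109.

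Gla encodes alpha-galactosidase A, the lysosomal enzyme lost in Fabry disease. It had no site in the KO list and 10 in the WT list, on chromosome X from 131123084 to 131123924, at depths of 8 to 17 reads. Among sites with at least 10 reads the level was highest at 131123195 (66.7% of 12 reads) and lowest at 131123629 (14.3% of 14 reads), the base outside the arms. The arm nearer the 5′ end held a single site, 131123924, at 87.5% of 8 reads, and the other arm 8 sites.

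Cds2 encodes a CDP-diacylglycerol synthase, which feeds the synthesis of phosphatidylinositol. On chromosome 2, position 132135616 stood at 23.5% (4 of 17 reads) in the KO-labelled library and 94.4% (17 of 18 reads) in the WT-labelled library, with intervals of 9.56% to 47.3% and 74.2% to 99.0% (Fisher's exact test, adjusted p = 6.90e-05). This was the most strongly edited Cds2 site. The other 6 WT sites, from 132135369 on, had levels between 21.1% and 64.7% at 15 to 19 reads. The deposited lists name a human position for 5 of the 7 Cds2 sites. Among the 322 sites of the other 3′ UTR genes they do so for 1, and for none in the other 8 of the 9 genes.

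C330018D20Rik, a RIKEN cDNA gene, had the most sites, 4 in the KO list and 19 in the WT list, on chromosome 18 from 57116138 to 57116711. Depth was 3 to 11 reads in the WT-labelled library, and none of its 4 sites in both lists had 10 reads in both. The KO-labelled and WT-labelled levels were 14.3% of 14 and 71.4% of 7 reads at 57116138, 22.2% of 9 and 57.1% of 7 reads at 57116213, 33.3% of 9 and 85.7% of 7 reads at 57116214, and 44.4% of 9 and 100% of 7 reads at 57116216. In both libraries 57116213 had the lowest and 57116216 the highest level of the 3 neighbouring positions. All 4 KO sites lay in the arm nearer the 3′ end. At sites with at least 10 reads the WT-labelled level was between 40.0% (57116580) and 90.9% (57116594).

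On the deposited RPKM scale, expression of the 9 genes was close in both libraries. The highest value of any gene was 124 RPKM in the KO-labelled library and 107 RPKM in the WT-labelled library. Whether so low a ceiling narrows the ratios was not tested. None was at least 2-fold apart on the scale of RPKM + 1, where 11.9% of 13867 genes with at least 1 RPKM were (4.42% higher and 7.46% lower in the KO-labelled library). The median log2 ratio of KO-labelled over WT-labelled was 0.05 over the 9 genes and 0.01 over all compared genes. Since 72.5% of compared genes lay no farther from 0 than the most distant of the 9, such closeness is common. In a bulk sample fewer cells of a type and less RNA per cell cannot be told apart.

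Gla had the log2 ratio farthest from 0, with 475 reads (16.4 RPKM) in the KO-labelled library and 651 reads (22.7 RPKM) in the WT-labelled library. The log2 ratio of its reads per total was -0.47 (exact 95% interval -0.64 to -0.30), and the authors' deposited table gives it a generalized fold change (GFOLD, log2) of -0.22. Jmjd4 differed most in the other direction, with 454 reads (10.7 RPKM) in the KO-labelled library and 356 reads (8.48 RPKM) in the WT-labelled library, an interval of 0.13 to 0.54. The Snap47 gene overlaps Jmjd4 on the opposite strand, outside the edited sites, and whether the authors' counts used strand is not given in the sources used here. Dnajc1 had 2003 reads (24.4 RPKM) in KO-labelled and 1740 reads (21.5 RPKM) in WT-labelled cells, an interval of 0.09 to 0.28. Ankrd28 had 2250 reads (45.1 RPKM) in KO-labelled and 2087 reads (42.2 RPKM) in WT-labelled cells, an interval of 0.01 to 0.18. Mllt10 likewise overlaps Dnajc1 on the opposite strand.

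C330018D20Rik had 252 reads (10.9 RPKM) in the KO-labelled library and 240 reads (10.5 RPKM) in the WT-labelled library, an interval of -0.21 to 0.32. Rnf168 had 28.6 RPKM in KO-labelled and 28.5 RPKM in WT-labelled cells, and Fbxl17 8.39 RPKM in KO-labelled and 8.48 RPKM in WT-labelled cells. Gnl3l had 41.0 RPKM in KO-labelled and 36.9 RPKM in WT-labelled cells, and Cds2 20.6 RPKM in KO-labelled and 22.1 RPKM in WT-labelled cells. Rnf168 and Fbxl17 were the closest of the 9 to equal values. The whole reads behind these 4 genes could not be fixed to a single number, and they have no interval. Of the 5 genes with an interval, 4 had one without 0, Dnajc1, Jmjd4 and Ankrd28 on the higher side and Gla on the lower side. The intervals hold counting error only, and with many reads they leave out 0 at small shifts. How many other genes have such an interval was not counted, so the 4 are only described.

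**Figure D5:**
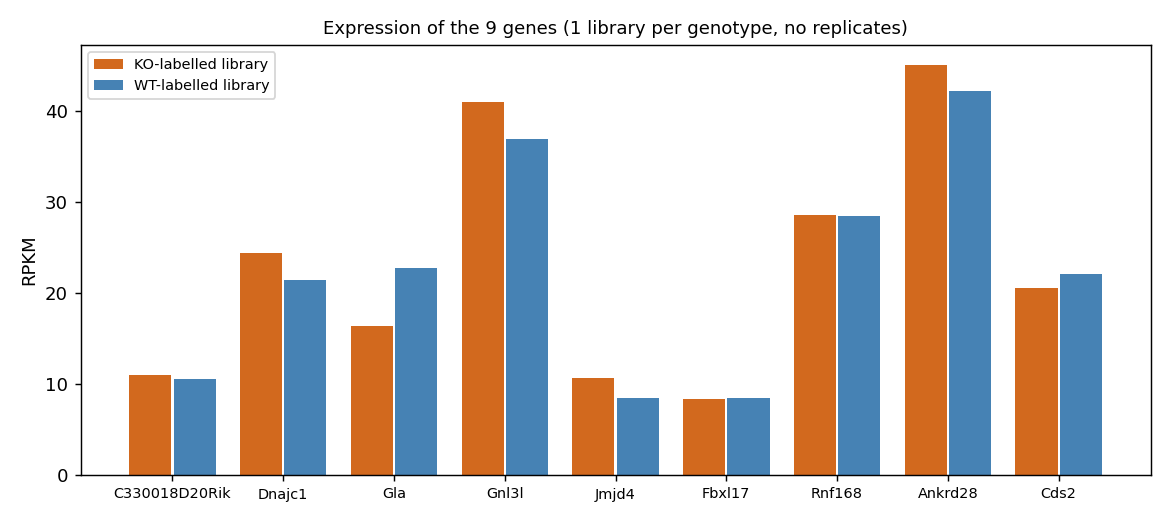
RPKM (y axis, from 0) of the 9 genes in the KO-labelled library (orange, left bar) and the WT-labelled library (blue, right bar), 1 library each and so with no error bar. Gla has the largest log2 ratio in size, at 16.4 RPKM in the KO-labelled library and 22.7 RPKM in the WT-labelled library.

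Genes that work with the 9 were close too on that scale. Of 95 compared genes in 9 lists of partners and pathway members, 0 exceeded a 2-fold gain and 1 a 2-fold loss in the KO-labelled library, with a median log2 ratio of 0.04. The background shares were 4.42% and 7.46%. That background holds every gene with at least 1 RPKM and was not matched for expression, so the partners are not shown to be unusually stable. The exception was Manba, the lysosomal beta-mannosidase gene, with 0.285 RPKM in the KO-labelled library and 7.38 RPKM in the WT-labelled library, which made it the lowest by log2 ratio of the 14 lysosomal genes beside Gla. Their median log2 ratio was -0.23, and Gaa (27.0 RPKM KO-labelled, 24.3 RPKM WT-labelled) had the highest ratio. In the other lists the median ran from -0.16 for the chaperones beside Dnajc1 to 0.23 for ubiquitin signalling at DNA breaks. Among the 15 genes of ubiquitin signalling at DNA breaks, the partners of Rnf168, the highest and lowest log2 ratios were those of Fam175a (20.8 RPKM KO-labelled, 13.2 RPKM WT-labelled) and H2afx (63.7 RPKM KO-labelled, 67.1 RPKM WT-labelled). Mdc1, which brings the ubiquitin cascade to breaks and is itself among the genes with 7 listed 3′ UTR sites, had 35.9 RPKM in KO-labelled and 31.7 RPKM in WT-labelled cells. Protein phosphatase 6 subunits ended with Ppp6r2 (9.82 RPKM KO-labelled, 6.63 RPKM WT-labelled) and the catalytic subunit Ppp6c (40.1 RPKM KO-labelled, 43.1 RPKM WT-labelled).

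In the CDP-diacylglycerol pathway of Cds2, Lpin3 (12.7 RPKM KO-labelled, 9.19 RPKM WT-labelled) and Lpin1 (8.51 RPKM KO-labelled, 12.8 RPKM WT-labelled), both phosphatidic acid phosphatase genes, stood at the ends of 14 compared genes. Cds1, the paralog of Cds2, was listed at 0 in the KO-labelled library and at 0.108 RPKM in the WT-labelled library. For SCF ligase genes the ends were Skp2 (32.4 RPKM KO-labelled, 24.3 RPKM WT-labelled) and Fbxl5 (30.8 RPKM KO-labelled, 34.7 RPKM WT-labelled), for nucleolar GTPases and partners Mdm2 (50.9 RPKM KO-labelled, 35.6 RPKM WT-labelled) and Gnl1 (30.8 RPKM KO-labelled, 38.8 RPKM WT-labelled), and for chaperones beside Dnajc1 Sec63 (31.0 RPKM KO-labelled, 27.5 RPKM WT-labelled) and Dnajb9 (27.0 RPKM KO-labelled, 34.5 RPKM WT-labelled). JmjC hydroxylases with eRF1 ended with Hif1an (21.9 RPKM KO-labelled, 19.0 RPKM WT-labelled) and Mina (22.0 RPKM KO-labelled, 26.9 RPKM WT-labelled). Proteins and RNAs linked to inosine or double-stranded RNA ran from Stau2 (12.8 RPKM KO-labelled, 8.24 RPKM WT-labelled), a double-stranded RNA-binding protein gene, to Neat1 (58.4 RPKM KO-labelled, 70.4 RPKM WT-labelled), the noncoding scaffold of paraspeckles.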

How the data were processed

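Per the submitters' processing notes, STAR 2.4.0d, SAMtools and the build mm9 were used; how sites were called and filtered is not given in the sources used here. The editing lists deposited by the authors give, per site, 2 read counts (covering and mismatched) and the editing level as a fraction, per the file headers. Every listed site has at least 2 edited reads; depth at unlisted sites is not given. RPKM values and a log2 fold change were made by the authors, per the file headers, in a table with the layout of GFOLD output.

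Here, levels were computed as percent with Wilson 95% intervals, and shared sites with at least 10 reads were tested with SciPy 1.17.1. Log2 ratios use RPKM + 1 and a larger value of at least 1 RPKM. Whole reads were recovered from the authors' log2 fold change of genes at 0 in 1 library. Site spacing was placed on GENCODE M21 transcripts, and inverted pairs were found with BLAST 2.17.0 (word size 7, E-value limit 0.001, pairs with overlapping arms left out). The scripts were tested on simulated data. Named sites are those in the KO list and, per gene, the first, the last, and the highest and lowest with at least 10 reads; named partners are the 2 ends of each list by log2 ratio. Other sites named, such as adjacent pairs and neighbours of KO-listed sites, and Mdc1 and Cds1, were chosen after their values were seen, as were the analyses of placement, stems and neighbouring bases. Members and lists were chosen with earlier results of these data known. Reads are not independent molecules, so intervals cover counting error only.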

Additional observations from a re-analysis of the deposited data

How the results depend on the processing

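Of 26 alternative settings, 25 left their result in place, among them coverage minimums, pseudocounts and centring. In place means a count within a set fold of the main count, or a median or share inside the interval of the main one. These limits are wide, so the tally is a description. The number of sites of the 9 genes past the Fisher test was 4 of 4 at a minimum of 10 reads, 5 of 8 at 5 reads or with no minimum, and 3 of 3 at 20 reads. The share of sites in annotated repeats was 81.0% among sites with at least 10 reads, of which C330018D20Rik has 4 of its 19, and 72.0% over all sites. A stricter E-value limit left 82 of 84 sites in arms; the settings for the placed sites and adjacent pairs were chosen after seeing the data. No paired analysis was possible because each genotype has 1 library with no replicate number. Depth limits Fbxl17, Jmjd4 and C330018D20Rik most.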
